A study of Mus musculus with 12 samples.

Results

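The genes described here are 36 mouse genes of glucose uptake, glycolysis, lactate handling and the cellular response to low oxygen. They were taken by symbol from a table of 45777 genes, from a list and not by a threshold on their values, and each symbol matched 1 row. All are annotated as protein-coding, and all 36 were among the 23585 genes tested, those with reads in 3 or more of the 12 libraries. RNA was sequenced from splenic CD4+ T cells that had been cultured for 3 days with 0.5 ug/mL of anti-CD3, an antibody that activates T cells through their receptor. Anti-CD3 was given to all 4 groups of 3 libraries, by itself, together with *L. acidophilus* (a lactic acid bacterium), together with FK506 (tacrolimus, which inhibits the phosphatase calcineurin) or together with both, called the combination below. Per the labels, every group came from wild type Balb/c mice at an age of 7 weeks, whereas the methods of the study name B6 mice for this experiment. Resting cells are not represented. The sources used here give no dose of *L. acidophilus* or FK506 for these libraries, and they do not say whether the 3 libraries of a group came from separate animals or cultures. The p-values therefore measure only the spread between these libraries.

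Glycolysis turns glucose into pyruvate in the cytosol. Activated T cells are known for a large rise in glucose uptake and for converting much of the pyruvate to lactate, which they export even when oxygen is available. HIF-1, a transcription factor whose alpha subunit is encoded by *Hif1a*, is destroyed when oxygen is plentiful, after prolyl hydroxylases of the Egln family have marked it. When it is stable it switches on many glycolytic genes together with *Vegfa*, *Bnip3* and *Egln3*.

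Levels are given as FPKM, the deposited read density scaled to transcript length and sequencing depth, which can be compared between genes. Changes are log2 fold changes fitted by edgeR to the counts, and a gene is said to have risen or fallen where the Benjamini-Hochberg adjusted p over all genes tested was under 0.05. Total counts ranged from 45416397 to 64658165 per library, and apart from *Hk3* no gene of the 36 had fewer than 103 counts in any library. The labelled cell type matched its markers, since *Cd3e* and *Cd4* were at 130.8 FPKM or more in every library, and 6 markers of CD4 T cells summed to 968 to 1380 FPKM with anti-CD3 and to 1501 to 1689 FPKM with the combination. Markers of other spleen cells moved with the treatments. The 12 B-cell markers summed to between 42.0 and 69.3 FPKM with anti-CD3, between 28.4 and 40.5 with *L. acidophilus*, between 254 and 508 with FK506 and between 154 and 182 with the combination, and 11 of the 12 rose with FK506 and 9 of the 12 with the combination. The 12 myeloid markers summed to between 0.498 and 0.914 FPKM with anti-CD3, between 0.537 and 1.87 with *L. acidophilus*, between 4.10 and 12.2 with FK506 and between 32.5 and 58.3 with the combination, where 7 of the 9 tested had risen. Of the defining myeloid markers, *Csf1r* was at 0 in every anti-CD3 library and at 0.921, 0.705 and 0.834 FPKM with the combination. Mean levels with anti-CD3 and with the combination were 0.0195 and 20.4 FPKM for *Lyz2* and 0.561 and 12.96 FPKM for *Mpeg1*. *S100a8* was at 0 throughout. The 5 erythroid markers summed to at most 0.447 FPKM outside the combination and to between 1.48 and 1.99 in it, where all 3 of those tested had risen. Of the CD8 T-cell markers, *Cd8a* rose with FK506 (2.38 ± 0.56, edgeR adjusted p = 0.0123), with a mean of 1.23 FPKM, and *Cd8b1* did not pass (0.28 ± 0.32, edgeR adjusted p = 0.588). The part of these cells in the results below was not tested, and in bulk RNA fewer cells of a type and less RNA per cell cannot be told apart.

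The combination lowered most of the 36 genes. Against anti-CD3 alone, 28 fell, 1 rose and 7 did not pass the test, and 21 of the falls were at least 2-fold. Over all genes tested, 43.3% were called in this comparison, 21.5% as higher, 21.8% as lower and 10.8% as lower by at least 2-fold. The median log2 fold change of the 36 genes was -1.60, and that of all genes tested was 0.02. The 36 genes together held 2.06–2.55% of all FPKM with anti-CD3, 1.46–1.86% with *L. acidophilus*, 0.963–1.37% with FK506 and 0.763–0.786% with the combination. These ranges did not overlap, so the share was lower in each group than in the one named before it. Mean FPKM fell in this same order in 21 of the 36 genes, as it did in 11.4% of all genes tested. Every combination library lay below every anti-CD3 library in 26 of the 36 genes, against 18.8% of all genes tested, and below all 9 other libraries in 16, against 10.7%.

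**Figure D1:**
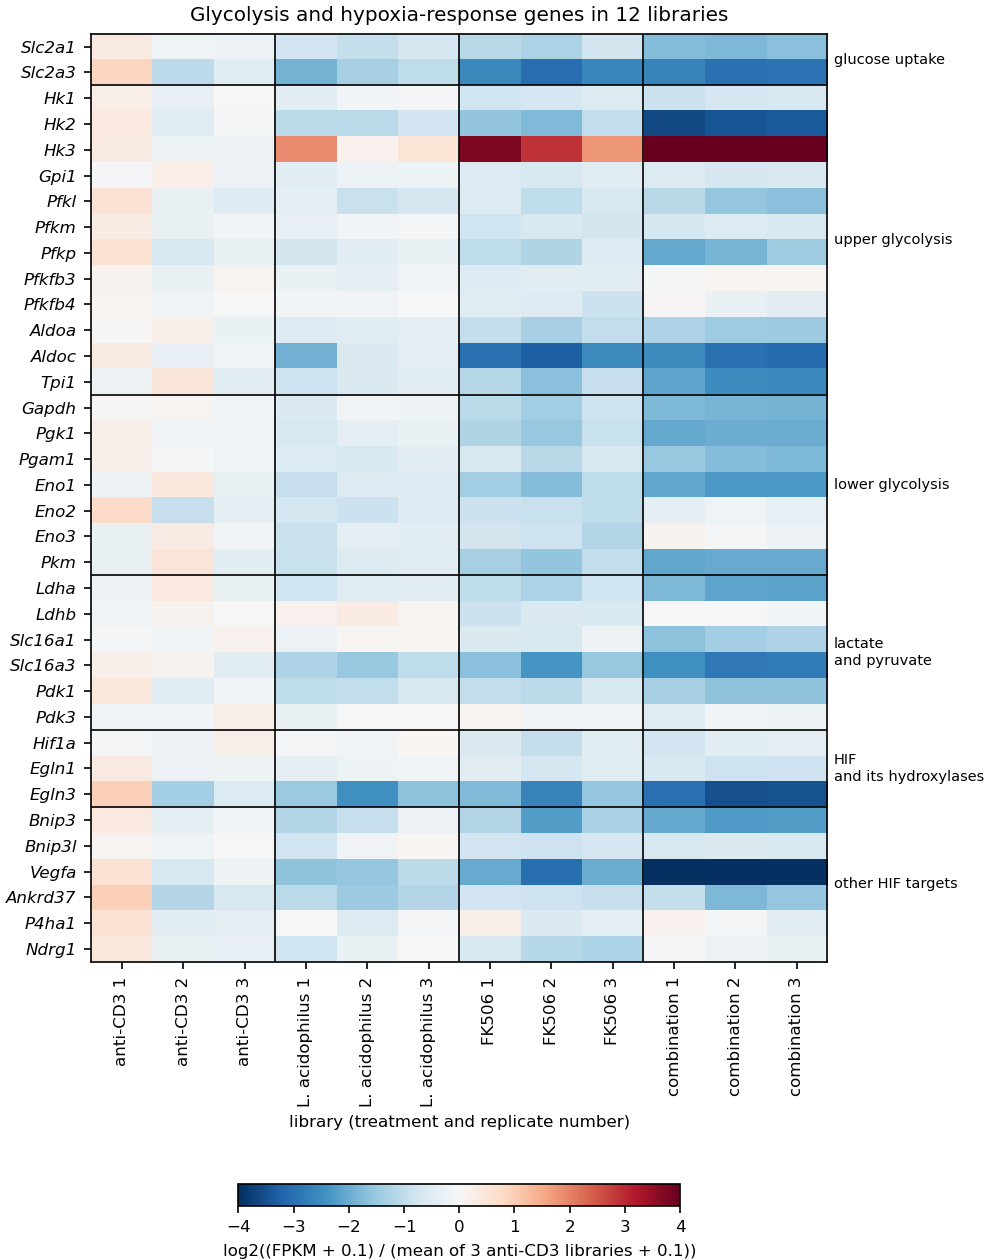
Heat map of the 36 genes (rows, grouped by role) in the 12 libraries (columns). Colour gives log2 of FPKM + 0.1 over the mean of the 3 anti-CD3 libraries + 0.1, with values past -4 or 4 drawn in the end colours. Most rows darken towards blue from anti-CD3 to the combination, *Hk3* turns red, and *Eno3*, *Pfkfb3* and *Ldhb* are among those near white in the combination.

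The 3 anti-CD3 libraries differed from each other more than those of the other groups. The median coefficient of variation over the 36 genes was 24.8% with anti-CD3, 14.0% with *L. acidophilus*, 17.1% with FK506 and 10.1% with the combination. Anti-CD3 replicate 1 held the highest level of its group for 24 of the 36 genes, among them *Slc2a3*, *Eno2*, *Egln3* and *Ankrd37*. Replicate 2 held it for 9, among them *Tpi1*, *Pkm* and *Ldha*. In each other group, too, 1 library held the highest level for many of the 36 genes. This was *L. acidophilus* replicate 3 for 27, FK506 replicate 3 for 20 and combination replicate 1 for 22.

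HIF-1 binds DNA at a short core, ACGTG or GCGTG, of which only ACGTG was searched for and marked here. The stretch before the start of 5 genes is printed to show where ACGTG stood in genes that moved differently. *Hk2*, *Pgk1*, *Ldha* and *Slc16a3* fell at least 2-fold in the combination, whereas *Ldhb*, the sister gene of *Ldha*, did not pass the test. The sequences are the 250 bases before the most upstream start that the RefSeq promoter table used here holds for the gene, in build GRCm38.p6, read 5′ to 3′ along the gene. Capitals mark ACGTG on either strand, shown as ACGTG or CACGT, and a palindromic CACGTG holds both. The stretches are *Hk2* at chr6:82774455-82774704 on the minus strand, *Pgk1* at chrX:106186850-106187099 on the plus strand, *Ldha* at chr7:46845554-46845803 on the plus strand, *Slc16a3* at chr11:120948817-120949066 on the plus strand and *Ldhb* at chr6:142507958-142508207 on the minus strand. The RefSeq gene bounds begin further upstream for *Ldha*, by 3530 bases, and for *Slc16a3*, by 583 bases, as they do for 14 of the 33 genes with a sequence.
Hk2: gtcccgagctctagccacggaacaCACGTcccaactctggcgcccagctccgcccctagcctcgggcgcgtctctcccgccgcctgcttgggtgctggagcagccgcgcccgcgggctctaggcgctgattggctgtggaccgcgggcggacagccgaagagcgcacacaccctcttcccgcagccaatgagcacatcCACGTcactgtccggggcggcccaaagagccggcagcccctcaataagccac
Pgk1: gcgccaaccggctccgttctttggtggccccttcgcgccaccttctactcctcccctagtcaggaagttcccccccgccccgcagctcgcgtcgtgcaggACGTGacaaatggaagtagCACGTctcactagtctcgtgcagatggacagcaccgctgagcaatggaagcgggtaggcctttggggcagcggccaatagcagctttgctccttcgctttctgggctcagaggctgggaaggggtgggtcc
Ldha: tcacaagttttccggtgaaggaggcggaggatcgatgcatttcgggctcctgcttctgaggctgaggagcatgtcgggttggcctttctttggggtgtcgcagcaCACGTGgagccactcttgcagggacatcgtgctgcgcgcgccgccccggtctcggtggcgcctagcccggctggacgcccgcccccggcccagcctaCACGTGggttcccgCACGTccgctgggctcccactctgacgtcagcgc
Slc16a3: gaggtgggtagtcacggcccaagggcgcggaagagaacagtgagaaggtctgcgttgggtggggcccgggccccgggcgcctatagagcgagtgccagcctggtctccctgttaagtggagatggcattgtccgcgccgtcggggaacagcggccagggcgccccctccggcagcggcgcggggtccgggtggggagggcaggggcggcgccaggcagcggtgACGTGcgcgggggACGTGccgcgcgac
Ldhb: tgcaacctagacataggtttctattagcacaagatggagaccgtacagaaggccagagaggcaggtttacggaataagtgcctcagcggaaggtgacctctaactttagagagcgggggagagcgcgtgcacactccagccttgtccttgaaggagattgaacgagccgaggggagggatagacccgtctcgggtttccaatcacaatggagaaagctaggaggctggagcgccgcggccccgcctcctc
The letters occurred at 2 positions before *Hk2*, 226 and 52 bases from the start, and at 2 positions before *Pgk1*, 150 and 131 bases from it. *Ldha* had 5 matches, 4 of them in its 2 CACGTG copies, and *Slc16a3* had 2 within its last 27 bases. *Ldhb* had no ACGTG in this window, although its stretch holds the other core, GCGTG. Sequences were found for 33 of the 36 genes, all but *Slc2a3*, *Bnip3l* and *Ndrg1*, and 17 of the 33 (51.5%) held ACGTG on either strand, against 16.5% of the 27025 promoter stretches of the same length in the table. The median GC content was 62.8% for these 33 and 52% for the whole table, and the part of base composition in the difference was not tested. Among the 33, the letters were about as frequent in the 20 genes that fell at least 2-fold in the combination, in 10 of them (50%), as in the other 13, in 7 (53.8%). *Vegfa*, *Tpi1*, *Gapdh*, *Eno1* and *Pkm* fell at least 2-fold and had none in this window.

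Glucose enters T cells mainly through the transporters encoded by *Slc2a1* (GLUT1) and *Slc2a3* (GLUT3), and both fell in the combination. *Slc2a1* was at 116, 80.4 and 77.4 FPKM in the anti-CD3 libraries, 53.2, 46.99 and 56.01 with *L. acidophilus*, 42.00, 38.2 and 54.7 with FK506 and 27.2, 26.4 and 28.7 with the combination. The combination libraries were the lowest 3 of the 12. *Slc2a1* was 3.85-fold lower than with anti-CD3 (log2 fold change -1.94 ± 0.19, SE, n = 3 per group, edgeR adjusted p = 1.76e-05) and 1.75-fold lower than with FK506 (-0.81 ± 0.18, edgeR adjusted p = 0.0101). *Slc2a3* was at 209, 55.4 and 82.2 FPKM in the anti-CD3 libraries, 30.9, 46.2 and 56.9 with *L. acidophilus*, 19.1, 13.9 and 18.9 with FK506 and 18.1, 14.7 and 14.7 with the combination. FK506 and the combination overlapped for this transporter, and anti-CD3 replicate 1 stood 2.54-fold above the next highest anti-CD3 library. *Slc2a3* was 8.83-fold lower under the combination than under anti-CD3 (-3.14 ± 0.46, edgeR adjusted p = 0.000204) and 7.68-fold lower with FK506 (-2.94 ± 0.45, edgeR adjusted p = 0.00126). Without anti-CD3 replicate 1 these changes were -2.29 and -2.08. The difference between the combination and FK506 did not pass the test (-0.20 ± 0.42, edgeR adjusted p = 0.795).

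Of the 12 genes of upper glycolysis, 9 fell in the combination against anti-CD3, 1 rose and 2 did not pass the test. Hexokinase, which traps glucose in the cell by phosphorylating it, is encoded by several genes. *Hk2*, the inducible form, was at 56.6, 30.9 and 41.7 FPKM in the anti-CD3 libraries, 20.2, 20.2 and 25.03 with *L. acidophilus*, 14.4, 12.5 and 21.6 with FK506 and 3.47, 3.86 and 4.07 with the combination. The combination libraries stood apart from the other 9, with the lowest of these, an FK506 library, 3.08-fold above the highest combination library. The fall was 13.2-fold against anti-CD3 (log2 fold change -3.73 ± 0.26, SE, n = 3 per group, edgeR adjusted p = 5.9e-06), 6.33-fold against *L. acidophilus* (-2.66 ± 0.25, edgeR adjusted p = 4.34e-05) and 4.60-fold against FK506 (-2.20 ± 0.24, edgeR adjusted p = 0.000246). *Hk1*, the constitutive form, fell by less than 2-fold. It was at 66.1–99.8 FPKM with anti-CD3 and 45.9–53.6 with the combination (-0.94 ± 0.15, edgeR adjusted p = 0.000473), and its levels in the combination and FK506 overlapped (-0.13 ± 0.15, edgeR adjusted p = 0.604). The level of *Hk2* relative to *Hk1* within a library was 0.467–0.568 with anti-CD3, 0.263–0.332 with *L. acidophilus*, 0.244–0.385 with FK506 and 0.0739–0.0759 with the combination. The ratio ranges of *L. acidophilus* and FK506 overlapped, whereas the combination lay apart from all others. An exact two-sided permutation test of the ratio between the combination and anti-CD3 gave p = 0.1, the smallest value that 3 libraries against 3 allow.

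*Hk3*, a hexokinase known mainly from myeloid cells, moved the other way and was the only one of the 36 genes to rise against anti-CD3. Its counts were 12, 0 and 0 with anti-CD3, 76, 7 and 14 with *L. acidophilus*, 338, 126 and 57 with FK506 and 827, 500 and 583 with the combination. In FPKM it stayed low, at 1.45, 0.758 and 0.298 with FK506 and 3.67, 2.98 and 3.38 with the combination, where every library exceeded those of the other groups. The rise passed the test in the combination (edgeR adjusted p = 0.000225) and with FK506 (edgeR adjusted p = 0.00454) against anti-CD3, and the fold is not given because 2 of the anti-CD3 libraries were at 0. The summed myeloid markers were highest in the same libraries, and their part in the rise was not tested.

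The next steps commit the sugar to glycolysis and split it into trioses. *Gpi1*, which isomerizes the phosphorylated glucose, fell less than 2-fold in the combination (-0.84 ± 0.15, edgeR adjusted p = 0.000697). Of the phosphofructokinase genes, whose enzyme is the main control point of the pathway, *Pfkl* was at 91.8, 50.4 and 43.8 FPKM in the anti-CD3 libraries, 48.4, 33.1 and 38.7 with *L. acidophilus*, 42.6, 30.6 and 40.6 with FK506 and 28.5, 21.03 and 19.2 with the combination. All 3 of its combination libraries were below the other 9, and it fell 3.08-fold against anti-CD3 (-1.62 ± 0.29, edgeR adjusted p = 0.000757) without passing the test against FK506 (-0.81 ± 0.28, edgeR adjusted p = 0.0644). *Pfkp* was at 171, 72.2 and 90.9 FPKM in the anti-CD3 libraries, 67.1, 80.6 and 91.3 with *L. acidophilus*, 54.9, 48.5 and 78.1 with FK506 and 26.7, 30.5 and 41.8 with the combination. Its combination libraries were again the lowest 3, 2.70-fold below anti-CD3 (-1.43 ± 0.21, edgeR adjusted p = 0.000248) and 1.65-fold below FK506 (-0.72 ± 0.21, edgeR adjusted p = 0.0334). The call against FK506 was lost without FK506 replicate 1 or 3 or combination replicate 1, 2 or 3 (edgeR adjusted p 0.0553 to 0.126). *Pfkm* fell 1.81-fold in the combination against anti-CD3 (-0.86 ± 0.16, edgeR adjusted p = 0.000985), and the difference from FK506 did not pass the test (-0.02 ± 0.16, edgeR adjusted p = 0.952). *Pfkfb3* and *Pfkfb4* encode enzymes that make an activator of phosphofructokinase, and neither passed the test in the combination against anti-CD3 (-0.21 ± 0.11, edgeR adjusted p = 0.16 and -0.39 ± 0.16, edgeR adjusted p = 0.0776).

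Aldolase cleaves the resulting sugar bisphosphate into trioses. *Aldoa*, its main form here, was at 1284, 1417 and 1021 FPKM in the anti-CD3 libraries, 868, 913 and 939 with *L. acidophilus*, 635, 495 and 631 with FK506 and 524, 459 and 457 with the combination. It fell 2.98-fold in the combination (-1.57 ± 0.16, edgeR adjusted p = 2.53e-05), while FK506 and the combination overlapped (-0.38 ± 0.16, edgeR adjusted p = 0.12). *Aldoc*, a form present at much lower levels, was at 17.5, 10.7 and 12.7 FPKM in the anti-CD3 libraries, 3.50, 9.06 and 10.6 with *L. acidophilus*, 1.62, 1.34 and 2.28 with FK506 and 2.25, 1.63 and 1.54 with the combination. It was 8.42-fold below anti-CD3 with FK506 (-3.07 ± 0.39, edgeR adjusted p = 0.000461) and 8.61-fold below it with the combination (-3.11 ± 0.39, edgeR adjusted p = 8.15e-05), and the difference between FK506 and the combination did not pass the test (-0.03 ± 0.37, edgeR adjusted p = 0.982). *Tpi1*, which interconverts the trioses, was at 698, 1116 and 588 FPKM in the anti-CD3 libraries, 446, 539 and 592 with *L. acidophilus*, 364, 251 and 419 with FK506 and 187, 140.3 and 133 with the combination. The combination libraries lay below every FK506 library, so that *Tpi1* was 2.39-fold lower in the combination than with FK506 (-1.26 ± 0.27, edgeR adjusted p = 0.00814) and 6.04-fold lower than with anti-CD3 (-2.59 ± 0.28, edgeR adjusted p = 3.51e-05).

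Lower glycolysis runs from the trioses to pyruvate, and 5 of its 7 genes fell at least 2-fold in the combination against anti-CD3. *Gapdh*, often used as a reference gene, was at 988, 1035 and 851 FPKM in the anti-CD3 libraries, 639, 872 and 836 with *L. acidophilus*, 455, 366 and 537 with FK506 and 278, 261 and 261 with the combination. It fell 4.17-fold in the combination (log2 fold change -2.06 ± 0.18, SE, n = 3 per group, edgeR adjusted p = 1e-05), and the combination libraries lay below all others. *Pgk1*, which makes the first ATP of the pathway, was at 1115, 896 and 868 FPKM in the anti-CD3 libraries, 618, 733 and 798 with *L. acidophilus*, 414, 334 and 523 with FK506 and 231, 242 and 242 with the combination. Its 3 combination libraries were the lowest of the 12, 4.66-fold below anti-CD3 (-2.22 ± 0.18, edgeR adjusted p = 9.15e-06) and 1.90-fold below FK506 (-0.92 ± 0.18, edgeR adjusted p = 0.0044). *Pgam1*, a phosphoglycerate mutase, was at 341, 288 and 263 FPKM in the anti-CD3 libraries, 202, 194 and 221 with *L. acidophilus*, 189, 137 and 193 with FK506 and 103, 89.95 and 86.4 with the combination. No groups overlapped, each lying wholly below the one named before it, and the fall was 3.69-fold against anti-CD3 (-1.88 ± 0.17, edgeR adjusted p = 1.17e-05).

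*Eno1*, the main enolase, was at 1083, 1687 and 1025 FPKM in the anti-CD3 libraries, 662, 883 and 894 with *L. acidophilus*, 495, 377 and 619 with FK506 and 297, 260.0 and 256 with the combination. It was 5.40-fold lower under the combination than under anti-CD3 (-2.43 ± 0.25, edgeR adjusted p = 2.28e-05) and 1.96-fold lower than with FK506 (-0.97 ± 0.24, edgeR adjusted p = 0.0151). *Pkm*, the pyruvate kinase of activated T cells, had the highest mean level of the 36 genes over all libraries and was at 1529.7, 2728 and 1425 FPKM in the anti-CD3 libraries, 1028, 1299.6 and 1345 with *L. acidophilus*, 751, 629.6 and 958 with FK506 and 451, 469.9 and 470.1 with the combination. Anti-CD3 replicate 2 stood far above the other 2 anti-CD3 libraries for *Eno1* and *Pkm*, and the combination libraries lay below all others for both. *Pkm* was 4.67-fold lower under the combination than under anti-CD3 (-2.22 ± 0.26, edgeR adjusted p = 5.1e-05) and 1.76-fold lower than with FK506 (-0.82 ± 0.25, edgeR adjusted p = 0.0395). Against FK506 the call of *Eno1* was lost without FK506 replicate 3 or combination replicate 2 or 3 (edgeR adjusted p 0.057 to 0.0712), and that of *Pkm* without *L. acidophilus* replicate 2 or 3, FK506 replicate 1 or 3 or combination replicate 1, 2 or 3 (edgeR adjusted p 0.0519 to 0.164). Some of these genes have near-identical copies that took many reads, so their own levels are uncertain. *Eno1b* was at 0.272–0.302 of the level of *Eno1* in every library, *Pgam1-ps2* at 0.334–0.405 of *Pgam1*, and *Pgk1-rs7* at 0.0765–0.0820 of *Pgk1*. Each copy kept a nearly fixed proportion to its gene across the 4 groups.

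**Figure D2:**
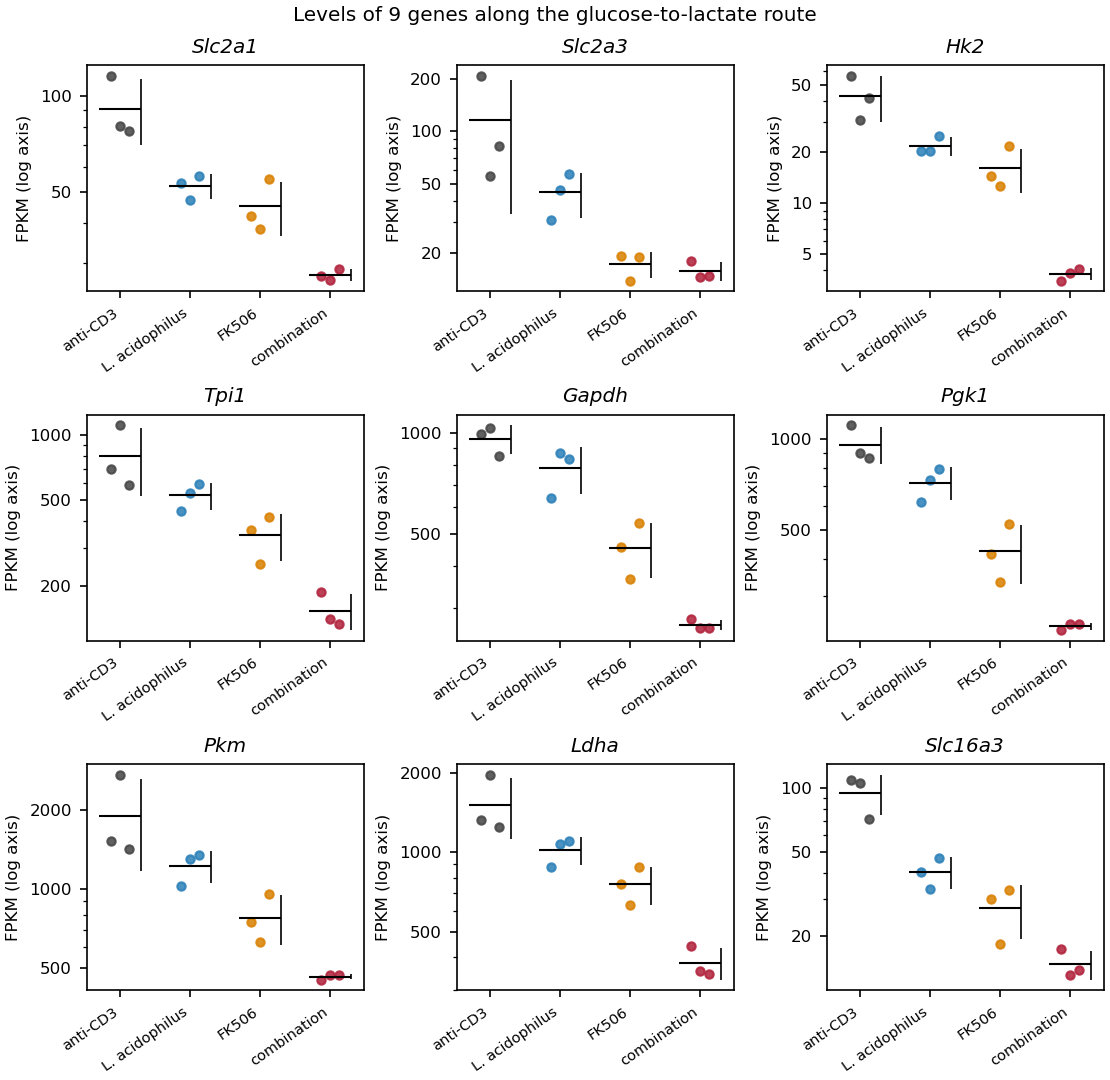
FPKM (log axis) of 9 genes on the way from glucose to exported lactate, by group. Points are the 3 libraries of a group, horizontal lines their mean and vertical lines the SD. The combination libraries are below all others in every panel except *Slc2a3*, where they overlap with FK506.

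The other enolase genes did not pass the test in the combination against anti-CD3. *Eno3*, the muscle form, was at 24.3, 36.6 and 26.5 FPKM in the anti-CD3 libraries, 15.7, 22.5 and 21.8 with *L. acidophilus*, 17.6, 16.5 and 12.99 with FK506 and 32.3, 27.9 and 24.5 with the combination. Its combination libraries overlapped with anti-CD3 (-0.09 ± 0.17, edgeR adjusted p = 0.712) and lay above every library of *L. acidophilus* and FK506. It fell with FK506 against anti-CD3 (-0.75 ± 0.17, edgeR adjusted p = 0.0103) and was higher in the combination than with FK506 (0.67 ± 0.17, edgeR adjusted p = 0.0189), a call lost without FK506 replicate 3 or combination replicate 1 (edgeR adjusted p 0.0631 to 0.0908). *Eno2*, the neuronal form, was at 10.96–36.03 FPKM with anti-CD3 and 15.9–18.8 with the combination (-0.54 ± 0.33, edgeR adjusted p = 0.204), and its fitted change turned to 0.14 without anti-CD3 replicate 1. The ratio of *Eno1* to *Eno3* within a library was 38.6–46.0 with anti-CD3 and 9.18–10.4 with the combination, with no overlap (exact two-sided permutation p = 0.1).

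Lactate dehydrogenase is built from subunits A and B, of which A is known to favour the making of lactate from pyruvate, and the combination lowered only the gene of the former beyond the test's threshold. *Ldha* was at 1329.7, 1977 and 1254 FPKM in the anti-CD3 libraries, 881, 1076 and 1109 with *L. acidophilus*, 760.0, 630.0 and 881 with FK506 and 439, 355 and 344 with the combination. All 3 combination libraries were below the other 9, 4.63-fold under anti-CD3 (log2 fold change -2.21 ± 0.22, SE, n = 3 per group, edgeR adjusted p = 1.99e-05) and 2.12-fold under FK506 (-1.09 ± 0.21, edgeR adjusted p = 0.00472). *Ldhb* ranged over 22.4–28.04 FPKM with anti-CD3, 27.04–31.7 with *L. acidophilus*, 13.8–17.01 with FK506 and 23.5–25.8 with the combination. FK506 alone gave its lowest levels (-0.80 ± 0.13, edgeR adjusted p = 0.00161 against anti-CD3). The combination overlapped with anti-CD3 (-0.22 ± 0.13, edgeR adjusted p = 0.186) and was higher than FK506 (0.58 ± 0.13, edgeR adjusted p = 0.00904). The call against FK506 did not hold under every alternative of fit or samples. The ratio of *Ldha* to *Ldhb* was 49.1–70.5 with anti-CD3, 30.9–41.0 with *L. acidophilus*, 37.0–55.2 with FK506 and 13.8–17.1 with the combination. Only the combination lay apart from all other groups, and its exact two-sided permutation p against anti-CD3 was 0.1, again the smallest possible.

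Lactate leaves the cell through monocarboxylate transporters, and both such genes among the 36 fell in the combination. *Slc16a3* (MCT4), a transporter of highly glycolytic cells, was at 109, 106 and 71.7 FPKM in the anti-CD3 libraries, 40.3, 33.3 and 47.1 with *L. acidophilus*, 30.1, 18.4 and 33.1 with FK506 and 17.4, 13.1 and 13.8 with the combination. The groups were ordered as for *Ldha*, and it fell 7.53-fold in the combination (-2.91 ± 0.26, edgeR adjusted p = 1.29e-05) and 3.82-fold with FK506 (-1.93 ± 0.25, edgeR adjusted p = 0.000537) against anti-CD3. *Slc16a1* (MCT1) was at 20.4, 20.2 and 24.7 FPKM in the anti-CD3 libraries, 18.7, 23.4 and 23.2 with *L. acidophilus*, 14.6, 14.3 and 18.8 with FK506 and 6.92, 8.38 and 9.11 with the combination. *L. acidophilus* overlapped with anti-CD3 for this gene, while the highest combination library was 1.57-fold below the lowest of the other 9. *Slc16a1* fell 3.08-fold in the combination against anti-CD3 (-1.62 ± 0.15, edgeR adjusted p = 1.28e-05) and 2.09-fold against FK506 (-1.06 ± 0.15, edgeR adjusted p = 0.000752). *Pdk1*, a kinase that limits the conversion of pyruvate to acetyl-CoA by inhibiting pyruvate dehydrogenase in the mitochondria, was at 13.7, 7.15 and 9.24 FPKM in the anti-CD3 libraries, 4.86, 5.05 and 6.39 with *L. acidophilus*, 5.01, 4.80 and 6.48 with FK506 and 3.90, 3.25 and 3.22 with the combination. Its combination libraries were below all others, 3.39-fold under anti-CD3 (-1.76 ± 0.24, edgeR adjusted p = 0.000128). *Pdk3*, a kinase of the same family, fell by less than 2-fold (-0.47 ± 0.13, edgeR adjusted p = 0.0109), and its combination and anti-CD3 libraries overlapped.

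**Figure D3:**
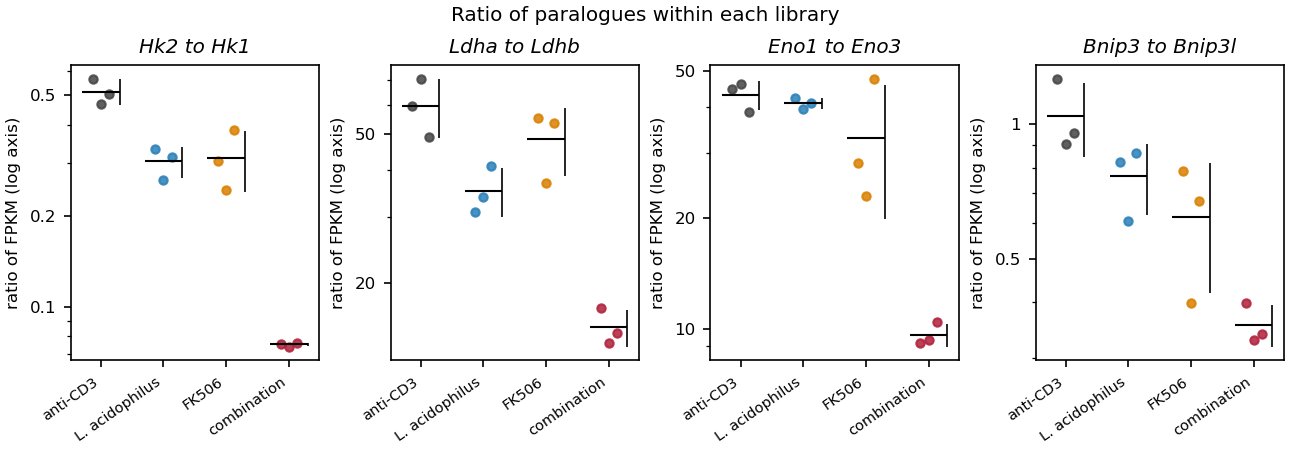
Ratios of FPKM between paralogues within each library (log axis) for 4 pairs, by group. Points are the 3 libraries, horizontal lines the mean and vertical lines the SD. The combination libraries have the lowest ratios in the first 3 panels and overlap only with FK506 in the panel of *Bnip3* to *Bnip3l*.

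*Hif1a* itself fell by less than 2-fold. Its range was 164–226 FPKM with anti-CD3, 175–201 with *L. acidophilus*, 99.8–139 with FK506 and 112–147 with the combination. It fell against anti-CD3 by 1.68-fold in the combination (log2 fold change -0.75 ± 0.15, SE, n = 3 per group, edgeR adjusted p = 0.0017), and the combination and FK506 overlapped. These are transcript levels, and HIF-1 is regulated mainly through the stability of its protein, which was not measured. *Egln1*, the main hydroxylase that marks HIF-1 for destruction, fell 1.94-fold in the combination (-0.96 ± 0.17, edgeR adjusted p = 0.000793). *Egln3*, a hydroxylase gene that HIF-1 induces, was at 98.6, 20.1 and 34.9 FPKM in the anti-CD3 libraries, 18.1, 9.32 and 16.4 with *L. acidophilus*, 15.02, 7.98 and 17.4 with FK506 and 6.32, 4.43 and 4.49 with the combination. It fell 11.6-fold in the combination against anti-CD3 (-3.54 ± 0.55, edgeR adjusted p = 0.000321), with anti-CD3 replicate 1 standing 2.82-fold above the next highest anti-CD3 library and a change of -2.60 without it. Every combination library was below every FK506 library for *Egln3*, and yet the difference did not pass the test (-1.49 ± 0.51, edgeR adjusted p = 0.0614).

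*Vegfa*, which encodes a growth factor for blood vessels and is a classic target of HIF-1, showed the largest fall of the 36 genes. It was at 28.02, 11.8 and 16.00 FPKM in the anti-CD3 libraries, 6.06, 6.31 and 8.91 with *L. acidophilus*, 4.57, 2.22 and 4.67 with FK506 and 0.834, 0.745 and 0.577 with the combination. Each group lay wholly below the one named before it, and the combination libraries were all under 1 FPKM. The fall was 29.6-fold against anti-CD3 (log2 fold change -4.89 ± 0.41, SE, n = 3 per group, edgeR adjusted p = 9.31e-06), 10.6-fold against *L. acidophilus* (-3.41 ± 0.38, edgeR adjusted p = 8.94e-05) and 5.61-fold against FK506 (-2.49 ± 0.37, edgeR adjusted p = 0.00121). *Bnip3*, whose product directs mitochondria to autophagy, was at 75.7, 44.2 and 53.4 FPKM in the anti-CD3 libraries, 25.8, 30.3 and 49.6 with *L. acidophilus*, 25.5, 12.3 and 23.2 with FK506 and 14.00, 12.03 and 12.1 with the combination. It fell 5.24-fold in the combination (-2.39 ± 0.32, edgeR adjusted p = 0.000117), and its paralogue *Bnip3l* 1.76-fold (-0.82 ± 0.18, edgeR adjusted p = 0.00296). The ratio of *Bnip3* to *Bnip3l* was 0.902–1.27 with anti-CD3 and 0.328–0.398 with the combination. *Ankrd37*, another target of HIF-1, was at 17.9, 4.11 and 5.88 FPKM in the anti-CD3 libraries, 4.40, 3.35 and 4.04 with *L. acidophilus*, 5.45, 5.15 and 4.82 with FK506 and 4.75, 2.62 and 3.14 with the combination. It passed the test in the combination against anti-CD3 (-1.54 ± 0.45, edgeR adjusted p = 0.0153), but the groups overlapped and the call was lost without anti-CD3 replicate 1 or combination replicate 2 or 3 (edgeR adjusted p 0.0522 to 0.073). The fitted change without anti-CD3 replicate 1 was -0.63. *P4ha1*, a collagen prolyl hydroxylase, and *Ndrg1*, a stress-response gene, did not pass (-0.28 ± 0.30, edgeR adjusted p = 0.483 and -0.39 ± 0.25, edgeR adjusted p = 0.231), and the fitted change of *P4ha1* turned to 0.16 without anti-CD3 replicate 1.

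**Figure D4:**
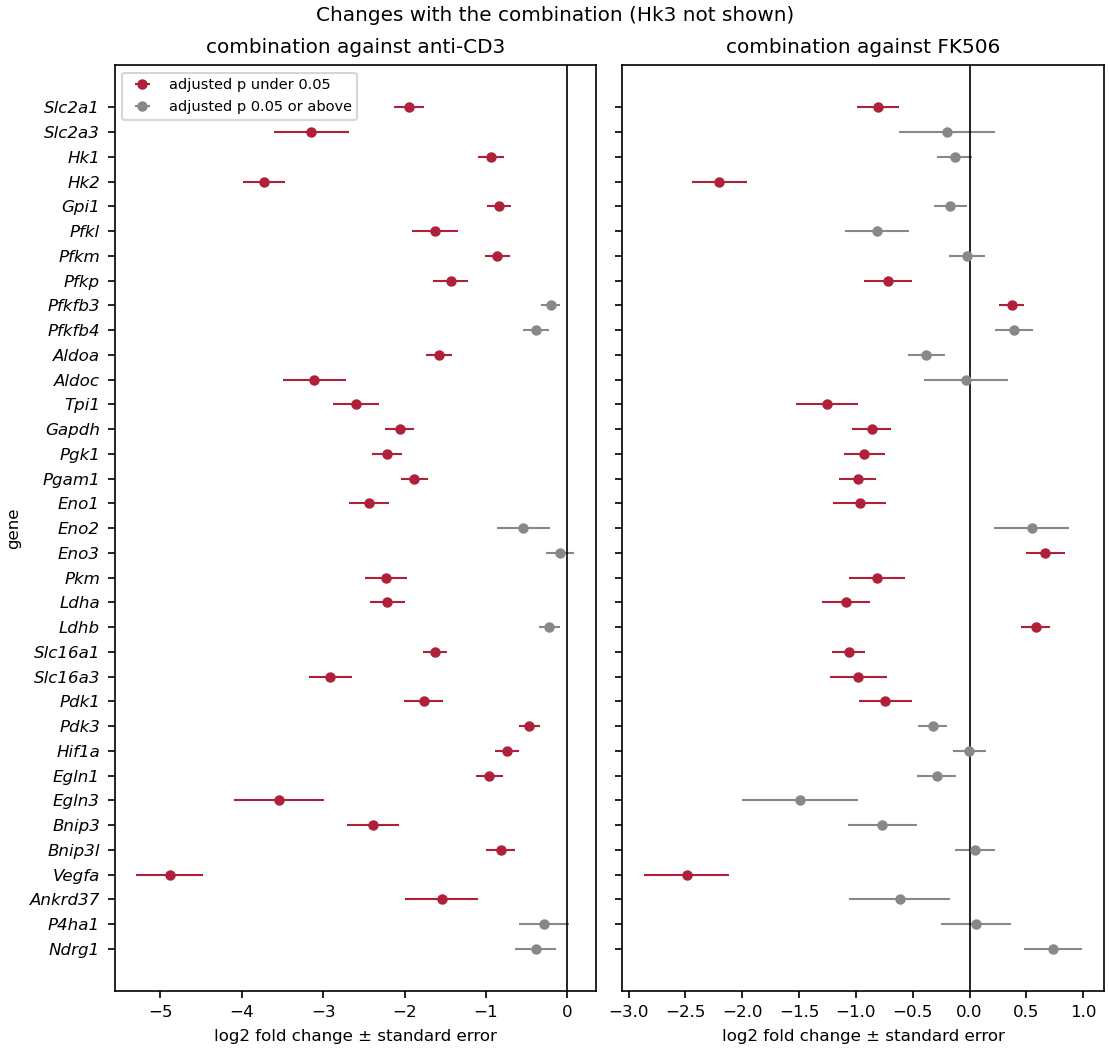
Log2 fold changes with standard errors of 35 of the 36 genes for the combination against anti-CD3 (left) and against FK506 (right). Red marks an edgeR adjusted p under 0.05. *Hk3*, whose fitted fold is unstable because of counts of 0, is not drawn. On the left all points lie below 0, and on the right *Hk2* and *Vegfa* have the largest falls while *Pfkfb3*, *Eno3* and *Ldhb* are the red points above 0.

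FK506 alone also lowered most of these genes. Against anti-CD3, 31 of the 36 fell, 18 of them at least 2-fold, and *Hk3* rose. Over all genes tested, 19.0% were called, 10.2% as higher, 8.81% as lower and 4.12% as lower by at least 2-fold. The median log2 fold change of the 36 was -0.98. The falls with FK506 included *Ndrg1* (-1.13 ± 0.25, edgeR adjusted p = 0.0101), *Pfkfb4* (-0.78 ± 0.17, edgeR adjusted p = 0.00741) and *Eno2* (-1.09 ± 0.33, edgeR adjusted p = 0.0389), none of which passed the test in the combination against anti-CD3. The call of *Pfkfb4* did not hold under every alternative of fit or samples. The call of *Eno2* was lost without anti-CD3 replicate 1, *L. acidophilus* replicate 2 or 3, FK506 replicate 1, 2 or 3 or combination replicate 2 or 3 (edgeR adjusted p 0.0507 to 0.109), and its fitted change was -0.40 without anti-CD3 replicate 1. Both comparisons use the same anti-CD3 libraries, and 11 of the 12 B-cell markers rose with FK506, whose part in these falls was not tested.

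With *L. acidophilus* alone no gene of the 36 was called by edgeR, in a comparison where 0.229% of all genes tested were, 0.178% as higher and 0.0509% as lower. At an unadjusted p under 0.05 there were 25, against 14.8% of all genes tested. DESeq2 called 12, all as falls, where it called 4.71% of all genes tested, 2.34% as lower. The fitted change was below 0 for 34 of the 36, with a median of -0.58, which was -0.38 without anti-CD3 replicate 1 and -0.32, with 30 below 0, without the 4 libraries numbered 1. Every *L. acidophilus* library was below every anti-CD3 library for 14 genes, against 6.03% of all genes tested. The lowest adjusted p was that of *Slc16a3*, at 2.52-fold lower (-1.33 ± 0.25, edgeR adjusted p = 0.0534). *Slc2a1* was at -0.89 ± 0.18, edgeR adjusted p = 0.0666 and *Hk2* at -1.06 ± 0.23, edgeR adjusted p = 0.0793. *Ldhb* and *Hk3* were the genes with a fitted change above 0.

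Adding *L. acidophilus* to FK506 lowered 14 of the 36 genes further and raised 3, while 19 did not pass the test. Over all genes tested, 19.1% were called in the combination against FK506, 10.9% as lower, 3.60% as lower by at least 2-fold, and 8.18% as higher. The falls were 3 of the 12 genes of upper glycolysis, 5 of the 7 of lower glycolysis, 4 of the 6 of lactate and pyruvate, *Slc2a1* and *Vegfa*. Only 9 fell without FK506 replicate 3, combination replicate 2 or combination replicate 3. Of the 14, *Pfkp*, *Eno1*, *Pkm*, *Slc16a3* and *Pdk1* lost their call when some single library was left out, *Slc16a3* without FK506 replicate 1 or 3 or combination replicate 2 or 3 (edgeR adjusted p 0.055 to 0.0786) and *Pdk1* without *L. acidophilus* replicate 1, 2 or 3, FK506 replicate 1, 2 or 3 or combination replicate 1, 2 or 3 (edgeR adjusted p 0.0501 to 0.164). The falls of at least 2-fold were *Hk2*, *Tpi1*, *Ldha*, *Slc16a1* and *Vegfa*, and their number was 3 without FK506 replicate 3, 12 without FK506 replicate 2 and 8 without combination replicate 1. None of *Hif1a*, *Egln1* and *Egln3* passed. The 3 that rose were *Pfkfb3*, *Eno3* and *Ldhb*, all of which had fallen with FK506 alone against anti-CD3, in a comparison that shares the FK506 libraries. The rise of *Pfkfb3* (0.37 ± 0.11, edgeR adjusted p = 0.039) was lost without *L. acidophilus* replicate 2, FK506 replicate 1, 2 or 3 or combination replicate 1, 2 or 3 (edgeR adjusted p 0.0513 to 0.115), and that of *Eno3* without FK506 replicate 3 or combination replicate 1 (edgeR adjusted p 0.0631 to 0.0908). That of *Ldhb* did not hold under every alternative of fit or samples either. In the combination against FK506, 9 of the 12 B-cell markers fell and 4 of the 9 myeloid markers tested rose, as did 1 of 3 erythroid markers, while *Cd8a* fell (-1.98 ± 0.55, edgeR adjusted p = 0.0269), and their part in these changes was not tested. Adding FK506 to *L. acidophilus* lowered 26 of the 36, 17 of them at least 2-fold, and raised *Hk3* and *Eno3*, the latter a call lost without *L. acidophilus* replicate 1 or 2 or combination replicate 1 or 2 (edgeR adjusted p 0.0553 to 0.108). Over all genes tested 33.6% were called in that comparison, 16.6% as higher, 17.0% as lower and 6.64% as lower by at least 2-fold.

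To ask whether FK506 altered what *L. acidophilus* did, the log2 change in the combination was set against the 2 single changes added up. For 33 of the 36 genes the departure did not pass the test, and for 3 it did, where 4.35% of all genes tested were called, 1.35% above the sum and 3.00% below it. *Eno3* was above the sum by 1.29 ± 0.24 (edgeR adjusted p = 0.0163). The fitted change with *L. acidophilus* was -0.62 ± 0.17 without FK506 and 0.67 ± 0.17 with it. *Pfkfb3* was at 20.7, 15.04 and 20.1 FPKM in the anti-CD3 libraries, 15.5, 14.5 and 17.04 with *L. acidophilus*, 12.97, 13.9 and 13.4 with FK506 and 17.5, 19.5 and 19.4 with the combination. Its combination libraries lay above those of both single treatments, and it was above the sum by 0.70 ± 0.16 (edgeR adjusted p = 0.0331). *Slc16a1* departed from the sum by -0.99 ± 0.20 (edgeR adjusted p = 0.0219), with a fitted change on adding *L. acidophilus* of -0.08 ± 0.14 without FK506 and -1.06 ± 0.15 with it. The departure of *Pfkfb3* was lost without anti-CD3 replicate 1 or 3, *L. acidophilus* replicate 1, 2 or 3, FK506 replicate 1, 2 or 3 or combination replicate 2 or 3 (edgeR adjusted p 0.051 to 0.0964), and that of *Slc16a1* without *L. acidophilus* replicate 2 or 3 or combination replicate 2 (edgeR adjusted p 0.0549 to 0.0657). The departure of *Hk2*, -1.14 ± 0.33, did not pass (edgeR adjusted p = 0.0775), nor did that of *Vegfa*, -1.01 ± 0.49 (edgeR adjusted p = 0.287). A missed threshold does not show that the effects add.

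**Figure D5:**
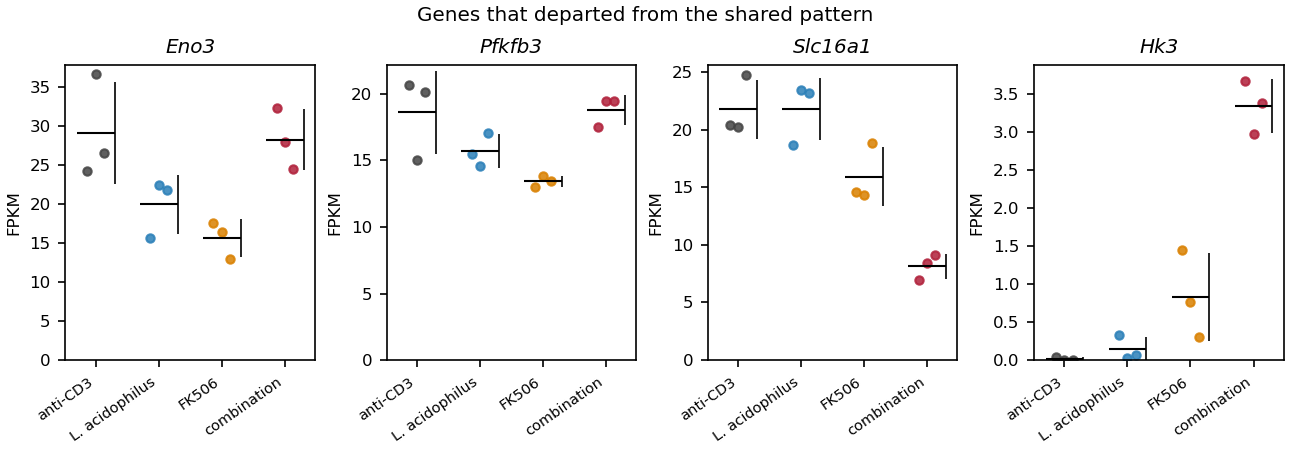
FPKM of *Eno3*, *Pfkfb3*, *Slc16a1* and *Hk3* by group (linear axes from 0). Points are the 3 libraries, horizontal lines the mean and vertical lines the SD. *Eno3* and *Pfkfb3* are lowest with FK506 and back at the anti-CD3 range with the combination, *Slc16a1* drops in the combination, and *Hk3* is highest there.

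A list of 78 symbols of other genes was followed beside the 36. They cover glucose and lactate transport, glycolysis, pyruvate metabolism, the pentose phosphate pathway, glycogen and the response to low oxygen. *Ero1a* and *Ero1l* in it name the same gene, 77 symbols matched a row and 72 were tested. In the combination against anti-CD3, 41 fell and 7 rose, where 21.8% of all genes tested fell and 21.5% rose. Of 21 further hypoxia targets, 15 fell and 1 rose. Of 10 genes of pyruvate dehydrogenase, its regulators and pyruvate carboxylase (*Pcx*), 8 fell and none rose. Of 7 genes of the pentose phosphate pathway, which branches off after hexokinase, 5 fell and none rose. The other lists had smaller shares of falls. Of 8 genes of the HIF pathway itself 3 fell and 3 rose, of 8 further transporters of glucose and lactate 4 fell and 1 rose, and of 9 other isoforms and regulators of glycolysis 3 fell and 1 rose. The same numbers applied to 9 glycogen genes. The transporter that rose was *Slc16a7* (MCT2), whose counts were 6, 8 and 6 with anti-CD3 and 40, 48 and 65 with the combination (2.83 ± 0.48, edgeR adjusted p = 0.000586). Large falls among genes with a mean of at least 1 FPKM included those of *Stc2* (-4.93 ± 0.42, edgeR adjusted p = 9.94e-06), which encodes a secreted glycoprotein, and *P4ha2* (-4.39 ± 0.73, edgeR adjusted p = 0.000484), a collagen prolyl hydroxylase. *P4ha2* was at 14.4, 3.01 and 3.58 FPKM with anti-CD3, and its fitted change was -3.27 without anti-CD3 replicate 1 and -5.16 without combination replicate 1. *Stc2*, whose fitted change was -4.27 without anti-CD3 replicate 1, was at 21.3, 6.86 and 9.40 FPKM in the anti-CD3 libraries, 5.98, 6.45 and 6.82 with *L. acidophilus*, 3.05, 2.98 and 4.39 with FK506 and 0.552, 0.447 and 0.399 with the combination. The largest rises among genes with a mean of at least 1 FPKM over all libraries were those of *Arnt2* (3.92 ± 0.88, edgeR adjusted p = 0.00375, with 4.52 without anti-CD3 replicate 1), *Pygm* (2.25 ± 0.31, edgeR adjusted p = 0.000142), the muscle glycogen phosphorylase, and *Txnip* (2.17 ± 0.23, edgeR adjusted p = 2.99e-05), which restrains glucose uptake. *Txnip* was at 17.4, 23.4 and 28.8 FPKM in the anti-CD3 libraries, 42.2, 41.02 and 42.5 with *L. acidophilus*, 51.6, 58.4 and 33.3 with FK506 and 153, 101 and 103 with the combination. The group means of *Txnip* followed the reverse order of those of *Slc2a1*, with all 3 combination libraries highest. With *L. acidophilus* alone 3 of the 72 passed the test, against 0.229% of all genes tested, *Ddit4* (-1.01 ± 0.15, edgeR adjusted p = 0.0289) and *Hilpda* (-1.56 ± 0.27, edgeR adjusted p = 0.0448) as falls and *Pygm* (1.79 ± 0.31, edgeR adjusted p = 0.0447) as a rise. The call of *Ddit4* was lost without anti-CD3 replicate 1 or 2, *L. acidophilus* replicate 1, 2 or 3, FK506 replicate 1 or combination replicate 2 or 3 (edgeR adjusted p 0.051 to 0.136), that of *Hilpda* without anti-CD3 replicate 1 or 2, *L. acidophilus* replicate 1, 2 or 3, FK506 replicate 1, 2 or 3 or combination replicate 2 or 3 (edgeR adjusted p 0.053 to 0.197) and that of *Pygm* without anti-CD3 replicate 1 or 2, *L. acidophilus* replicate 1, 2 or 3, FK506 replicate 1 or 2 or combination replicate 2 or 3 (edgeR adjusted p 0.0607 to 0.165).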

How the data were processed

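CD4+ T-cell libraries were grouped by their labels, 4 groups of 3. The authors deposited 1 table with read counts (whole numbers, not normalized), FPKM and TPM values per gene. The submitters' processing notes name bcl2fastq 2.20.0, Trimmomatic, HISAT2 2.1.0, StringTie 2.1.3b and the build mm10/GRCm38. The range migration algorithm and quantile normalization of the study's methods are not visible in the deposited values. Strandedness was not given in the sources used here.

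Counts of genes above 0 in at least 3 libraries were tested with edgeR 4.0.16 (quasi-likelihood F test, TMM factors, 1 mean per group over all 12 libraries, Benjamini-Hochberg adjustment) in R 4.3.3. Standard errors are the log2 fold change over the square root of F. limma 3.58.1 on log2(FPKM + 1), DESeq2 1.42.0 and other settings were alternatives. On simulated counts of 23247 genes, edgeR recovered 63 of 100 genes changed by a log2 of 1 and 92 of 100 changed by 2 in the combination against anti-CD3, with 6 others called, and 29 and 72 for the departure from the sum. No libraries were duplicates, but some were much closer than others. Chi-square per degree of freedom, which sets the difference between 2 libraries against sampling noise, was 4.52 for combination replicates 2 and 3. It was 8.95 for *L. acidophilus* replicates 2 and 3 and 43.7 to 188 for all other pairs within a group. Total counts were 63113961 to 64658165 in the 4 libraries numbered 1 and 45416397 to 54245588 in the others. Same-numbered libraries of anti-CD3 and *L. acidophilus* deviated together (correlations 0.52, 0.38 and 0.27), the only compared groups where all 3 pairs did, so this comparison was also fitted with the replicate number as a block; the labels do not say what the numbers share. Python 3.11.15 and matplotlib 3.10.9 drew the figures.

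The members and lists were chosen with earlier results of these data known. Values in every library are given for members that changed at least 2-fold in the combination against anti-CD3 or FK506 or departed from the sum. Of the other list, the 3 largest rises and falls with a mean of at least 1 FPKM are named. *Ddit4*, *Hilpda*, the level ranges of *Ldhb*, *Hif1a*, *Hk1* and *Eno2*, and the paralogue ratios were added after values were seen.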

Additional observations from a re-analysis of the deposited data

Results flagged for a closer look

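The effect of *L. acidophilus* on 3 of the 36 genes differed between cells with and without FK506, by a test of the difference itself (edgeR's interaction term, adjusted over all genes tested). For *Eno3* the difference was 1.29 ± 0.24 (log2, SE, adjusted p = 0.0163), and all 3 combination libraries were above all 3 FK506 libraries while all 3 *L. acidophilus* libraries were below all 3 anti-CD3 libraries. For *Pfkfb3* it was 0.70 ± 0.16 (edgeR adjusted p = 0.0331), with the combination libraries above all FK506 libraries and *L. acidophilus* overlapping with anti-CD3. For *Slc16a1* it was -0.99 ± 0.20 (edgeR adjusted p = 0.0219), with the combination libraries below all FK506 libraries and *L. acidophilus* overlapping with anti-CD3. None of these 3 calls held under every alternative tried.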

How the results depend on the processing

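Calls that held under every alternative of fit or samples, with stricter thresholds for a call left aside, were 23 of 29 for the combination against anti-CD3, 19 of 32 for FK506 against anti-CD3, 9 of 17 for the combination against FK506, 18 of 28 for the combination against *L. acidophilus* and 0 of 3 for the departure from the sum. Those lost for the combination against anti-CD3 were *Hk1*, *Pfkm*, *Pdk3*, *Hif1a*, *Bnip3l* and *Ankrd37*, all with limma on log2(TPM + 1). The number of members called for FK506 against anti-CD3 was 32, and 20 with limma on log2(TPM + 1) or 19 with an at least 2-fold change. For *L. acidophilus* against anti-CD3 it was 0, and 12 with DESeq2, 2 with no filter, 2 with edgeR's filterByExpr and 1 with limma at a mean FPKM of at least 1. For the combination against FK506 it was 17, and 9 at an adjusted p under 0.01 or 5 with an at least 2-fold change. For the combination against *L. acidophilus* it was 28, and 18 with an at least 2-fold change. For the departure from the sum it was 3, and 6 with DESeq2, 1 with limma on log2(TPM + 1), 1 with an at least 2-fold departure, 0 at an adjusted p under 0.01 and 0 without the 4 libraries numbered 1. limma on TPM and the fit without those libraries were added after seeing the data. With 1 library left out in turn, the numbers were 28 to 31 for the combination against anti-CD3, 26 to 33 for FK506 against anti-CD3, 0 to 3 for *L. acidophilus* (3 without anti-CD3 replicate 3), 10 to 21 for the combination against FK506 (10 without FK506 replicate 3, 11 without combination replicate 2 or 3), 22 to 28 for the combination against *L. acidophilus* and 1 to 4 for the departure (1 without *L. acidophilus* replicate 2 or 3 or combination replicate 2). The departure of *Hk3*, which did not pass the test, was -0.98 and turned to 1.13 with limma on log2(FPKM + 1), with or without a filter at a mean FPKM of 1. The cause of these shifts was not tested. Deviations of same-numbered libraries of 2 groups correlated at -0.16 to 0.52 (mean 0.21). For other numbers the mean was -0.10, which is no separate baseline, because the deviations within a group sum to 0. All 3 pairs exceeded 0.1 between anti-CD3 and *L. acidophilus*, where a replicate block in those 6 libraries, added after seeing the data, left 0 members called, but not between any other groups that were compared. With the replicate block over all 12 libraries 30, 32, 0, 20, 28 and 3 members were called in the comparisons in the order combination, FK506 and *L. acidophilus* against anti-CD3, combination against FK506 and against *L. acidophilus*, and departure. Without TMM factors the median of all genes moved by 0.20 for the combination against anti-CD3, the share of higher calls went from 49.7% to 62.9%, and 27 members fell and 1 rose.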

Other observations

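*Epas1*, which encodes HIF-2 alpha, the sister factor of HIF-1 alpha, was singled out from the wider list after its values were seen. It was at 27.5, 11.9 and 16.2 FPKM in the anti-CD3 libraries, 31.4, 20.1 and 18.9 with *L. acidophilus*, 45.1, 15.9 and 24.9 with FK506 and 1.92, 1.77 and 1.77 with the combination. The highest combination library was 6.18-fold below the lowest of the other 9, and the single treatments overlapped with anti-CD3. *Epas1* fell in the combination against anti-CD3 (-3.55 ± 0.41, edgeR adjusted p = 4.71e-05) and deviated from both single changes added up by -4.31 ± 0.54 (edgeR adjusted p = 0.00447), whereas the departure of *Hif1a* did not pass the test (0.14 ± 0.21, edgeR adjusted p = 0.795). The difference between the 2 genes was not tested.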
